A study of Mus musculus with 6 samples.

Results

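Cytoplasmic ribosomal protein genes, which encode the proteins of the ribosomes that translate nuclear messages, were followed across 6 expression arrays of mouse melanocytes. They were chosen by annotated symbol alone: Rpl or Rps followed by a number, plus Rpsa, Rplp0, Rplp1 and Rplp2, without the S6 kinases, the genes with a "-like" symbol and the pseudogenes. This gave 44 genes of the 18193 with a probe set of their own on the array. Of these, 43 encode ribosomal proteins, 22 of the large subunit and 21 of the small one. The other is Rps19bp1, whose symbol meets the rule and which encodes a binding partner of protein S19. RefSeq lists 81 coding genes under the same rule. Of the 37 without a probe set of their own, 29 were found only on probe sets shared between several genes, among them Rplp1, Rpl5, Rpl10 and Rpl23, and 8 were found on no listed probe set, among them Rps27a.

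The cells were melan-a, a pigment cell line grown from the epidermal melanoblasts of C57BL/6 mouse embryos. They had been transduced with delta-BRAF-ER, a constitutively active BRAF kinase whose activity is induced with tamoxifen. The 6 groups were these cells before activation (BRAF-off), after activation (BRAF-on), and after activation together with ectopic ZEB2, SNAIL2, TWIST1 or ZEB1, transcription factors of embryonic development. Each group was 1 array, so no difference below has a replicate check and none has a p-value. Tamoxifen dose and time are not given in the labels, nor is whether a line was 1 clone or a pool, and a tamoxifen-treated control lacking the construct is not among the 6 groups.

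A ribosome is built from ribosomal RNAs and, for most of these genes, a single copy of the protein, so the proteins are needed in near equal amounts. Their messages are among the most abundant in a growing cell, and most start with a C followed by a run of pyrimidines, the 5′ terminal oligopyrimidine (TOP) motif, through which mTOR signalling governs their translation. In the skin, mice with mutations in Rps19 or Rps20 are known for dark skin, an effect traced to keratinocytes, which stimulate the pigment cells.

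Array quality and labels were checked once. Ratios of 3′ to 5′ control signal lay between 1.36 and 1.54 for Actb and between 0.792 and 0.839 for Gapdh over the 6 arrays. A gene was counted as measured where its signal reached a floor of 63.7 units, the median of all values. All 12 pigment cell markers did so on every array except that labelled TWIST1, where 3 of 12 did. Of the other cell types, 3 to 5 of 6 fibroblast markers, 1 to 2 of 5 keratinocyte markers and 3 of 6 leukocyte markers reached it. For the genes of the introduced factors, the log2 ratio to BRAF-on was 0.49 for Zeb2, -0.41 for Snai2, -0.28 for Twist1 and -0.30 for Zeb1, each on the array named for it. Zeb2 was highest on its own array. Snai2 was highest on the array labelled TWIST1, Twist1 on that labelled ZEB1 and Zeb1 on that labelled ZEB2. Whether these probe sets can see the introduced sequences was not tested, so "ZEB2", "SNAIL2", "TWIST1" and "ZEB1" below mean the array with that label.

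Start regions are shown first, because the TOP motif is the sequence feature that members of this family share. RefSeq (GRCm38.p6) promoters matched 39 of the 44 members. The windows run from 40 bases before to 20 bases after the annotated start, on the gene's strand, and capitals mark the longest run of C or T that lies between 10 bases before and 20 bases after the start. The first 4 belong to members that were among the lowest with SNAIL2, described later, and the last 3 to members with ratios nearer to 0 there (Rplp2, Rps10 and, at -0.23, Rps18).
Rpl35, chr2:39005112-39005171, minus strand: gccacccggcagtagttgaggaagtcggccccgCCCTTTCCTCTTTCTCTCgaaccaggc
Rps24, chr14:24490638-24490697, plus strand: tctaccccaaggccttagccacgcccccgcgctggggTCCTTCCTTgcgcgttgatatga
Rps7, chr12:28635934-28635993, minus strand: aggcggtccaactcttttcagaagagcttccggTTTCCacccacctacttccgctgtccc
Rpl37, chr15:5116573-5116632, plus strand: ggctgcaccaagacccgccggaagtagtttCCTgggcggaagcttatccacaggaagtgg
Rplp2, chr7:141447611-141447670, plus strand: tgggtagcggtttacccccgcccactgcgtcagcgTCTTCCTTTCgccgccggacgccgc
Rps10, chr17:27635225-27635284, minus strand: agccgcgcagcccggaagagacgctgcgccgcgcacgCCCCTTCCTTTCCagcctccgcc
Rps18, chr17:33955646-33955705, minus strand: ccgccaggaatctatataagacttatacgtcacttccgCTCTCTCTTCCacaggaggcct

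The runs were 18 bases long in Rpl35, 9 in Rps24, 5 in Rps7 and 3 in Rpl37, and 10 in Rplp2, 13 in Rps10 and 11 in Rps18. The Rpl37 run begins at the edge of the stretch searched, and the bases just before it are also T, so its length is cut there. Runs were cut at that edge in all genes alike. These windows are picked examples, and Rpl22, also among the lowest and with a run of 5, is not shown. The median run was 6 in members at least 1.5-fold lower with SNAIL2 and 7 in the others compared. Where a gene had several listed starts, the one with the longest run was taken, for members and all genes alike. The shares with a run below are therefore counted at starts chosen for that feature. RefSeq lists 2 starts for Rps24, of which 1 is shown by this rule. A run of at least 8 pyrimidines in this 30-base window was found in 16 of 39 members (41.0%), against 13.8% of 14452 genes with a promoter entry. The letters CCGGAAG, the core that ETS-family factors such as GABPA bind, were found on either strand of the 300-base promoter in 18 of 39 members (46.2%) and in 13.7% of all genes. These are matches of letters at annotated starts, and starts were not measured here.

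Member signals were high and close between arrays. Signal is the array's linear brightness after each array was scaled to a trimmed mean of 500. Rps16, a small-subunit protein gene, had signals between 0.66 and 2.61 and was under the floor on all 6 arrays, so 43 members entered the comparisons. Among these, 34 had a mean log2 signal of at least 13, and 9 were dimmer. This division into bright and dim was made after the values were seen. Brightness of a probe set depends on its probes, so the dim members are not shown to be less abundant. The median signal of the bright members was 23670 on the BRAF-off array, 24484 on BRAF-on, 23046 on ZEB2, 18237 on SNAIL2, 22283 on TWIST1 and 24313 on ZEB1. The highest signal of any probe set lay between 31524 and 36148 per array, not far above the brightest members, and whether those were near saturation was not tested. From its lowest to its highest array, the median member differed 1.37-fold, against 1.70-fold for all genes that entered a comparison, and 27 of 43 members differed by under 1.5-fold. All genes were not matched to the members for brightness, here or in the spreads given below.

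As deposited, the lowest value of a member was most often on the array labelled SNAIL2 and the highest on the array labelled ZEB1. The SNAIL2 array held the lowest value of 31 of 43 members (72.1%), where it held the lowest value of 25.7% of all genes. The ZEB1 array held the highest value of 26 members (60.5%), against 29.2% of all genes. Quantile normalization gives every array the same distribution of values. After it, the SNAIL2 array still held the lowest value of 27 members, against 26.4% of all genes. The ZEB1 array then held the highest of 10 members, against 28.3% of all genes, and BRAF-on held that of 11. The excess on ZEB1 was thus seen in the deposited values and not after quantile normalization. The bright members lie near the top of every array, where quantile normalization sets the values alike. It therefore cannot show whether a joint rise was real. Ties between arrays were counted for the first array, in the order BRAF-off, BRAF-on, ZEB2, SNAIL2, TWIST1 and ZEB1.

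**Figure D1:**
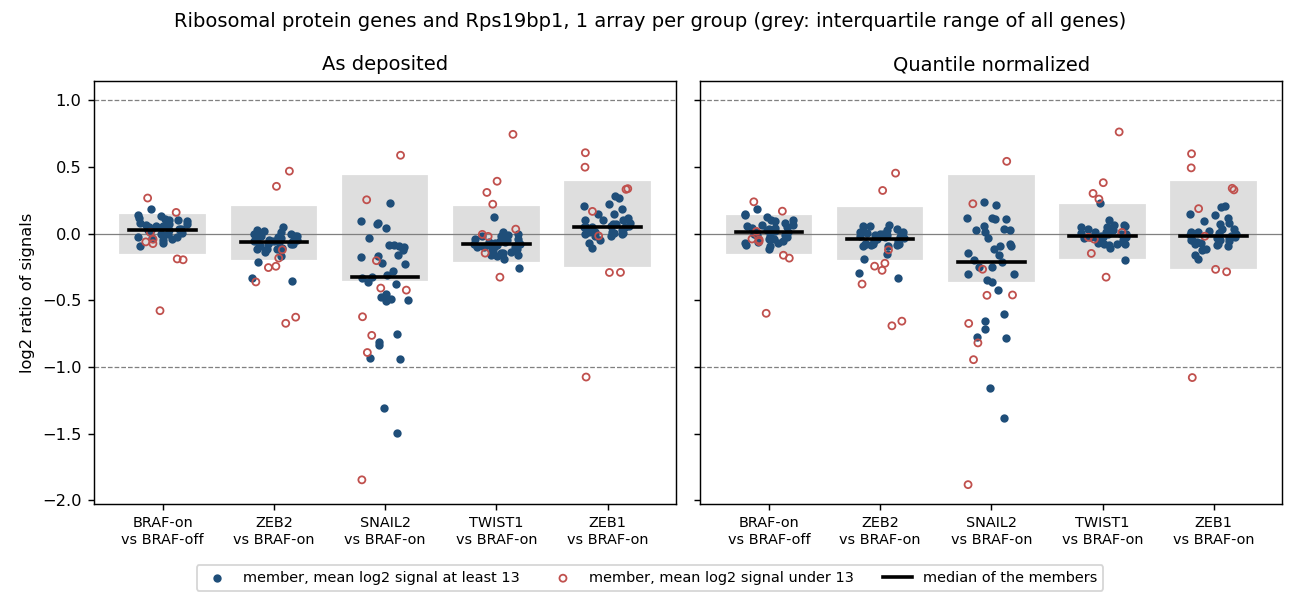
Log2 ratio of signal for each of the 43 measured members (ribosomal protein genes and Rps19bp1) in 5 comparisons of 1 array with 1 array, as deposited (left) and after quantile normalization (right). Filled points are members with a mean log2 signal of at least 13, open points dimmer ones, black lines the member medians, grey boxes the interquartile range of all genes and dashed lines 2-fold; with SNAIL2 the points spread down to -1.85 around a median of -0.32 (left), while the medians of the other comparisons lie between -0.08 and 0.05; Rpl12 with ZEB1, at -1.08, is the only other point past 2-fold.

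Activation of BRAF was compared first, BRAF-on against BRAF-off. Activity is induced with tamoxifen, so drug and kinase cannot be told apart here. The members stayed where they were: the median log2 ratio was 0.02 (0.01 after quantile normalization), and the interquartile range was 0.11, against a median of 0.00 and a range of 0.28 for all genes. That range was 0.09 for the 34 bright members and 0.20 for the 9 dim ones. None of the 43 members was 2-fold higher or lower, where 1.04% of all genes were 2-fold higher and 0.384% lower. None reached 1.5-fold as deposited either, where 4.01% and 2.39% of all genes did; after quantile normalization 1 did, Rpl39 at -0.60, where 2.75% of all genes were 1.5-fold lower.

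Furthest down with BRAF activation was Rpl39, a small large-subunit protein of the exit tunnel, at 343 signal units on BRAF-off and 230 on BRAF-on, a log2 ratio of -0.58. Rps19bp1 (-0.20) and Rpl27a (-0.19) followed. Rps27, a zinc-finger protein of the small subunit, was the highest at 0.27, followed by Rps7 at 0.19 and Rpl12 at 0.16. Apart from Rps7, all of these had dim probe sets.

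The lists of the surrounding translation machinery included 15 other genes known to carry a TOP motif. They are called TOP translation factors below, though some, such as Npm1, Nap1l1 and Hnrnpa1, are not translation factors. No gene reached 2-fold among these 15 (median -0.01, from Hnrnpa1 at -0.13 to Eif4b at 0.10), 76 mitochondrial ribosomal protein genes (median 0.00, from Mrpl32 at -0.23 to Mrps31 at 0.41), or 22 initiation factor genes (median -0.02, from Eif4g2 at -0.26 to Eif2b4 at 0.25). The same was true of 49 genes for ribosomal RNA synthesis and ribosome assembly (median 0.02, from Ebna1bp2 at -0.25 to Rrp9 at 0.31) and of 12 growth control genes (from Mtor at -0.15 to Rps6kb2 at 0.65, past 1.5-fold). The interquartile range was 0.11 for the members and 0.18 for mitochondrial ribosomal protein genes, 0.16 for initiation factors and 0.16 for assembly genes.

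SNAIL2 on top of active BRAF gave the widest differences in the family. Against BRAF-on, 3 of 43 members (6.98%) were at least 2-fold lower, where 6.42% of all genes were, and none was 2-fold higher, where 5.61% were. At 1.5-fold, 11 members (25.6%) were lower, against 15.7% of all genes, and 1 was higher, against 17.3%. Ratios were below 0 for 36 of 43 members, against 45.5% of all genes. The share of members at 2-fold is thus near the share of all genes. The member median was -0.32 as deposited, -0.21 after quantile normalization and -0.40 after each array was centred on its median gene, while the median of all genes was 0.06, 0.06 and -0.01. After quantile normalization 3 members were 2-fold lower (6.71% of all genes), 11 were 1.5-fold lower (16.2%) and 30 were below 0 (45.8%).

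Both subunits held lower members. Among large-subunit genes, 3 of 22 were 2-fold lower and 6 were 1.5-fold lower, with a median of -0.32. Among the 20 small-subunit genes measured, none was 2-fold lower and 5 were 1.5-fold lower, with a median of -0.30.

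Rpl37, a zinc-finger protein of the large subunit, had the lowest ratio. Its signals were 3814 on BRAF-off, 3702 on BRAF-on, 3103 on ZEB2, 1029 on SNAIL2, 3789 on TWIST1 and 4660 on ZEB1. The SNAIL2 array thus stood 3.60-fold below BRAF-on (log2 ratio -1.85, quantile -1.88), and the other 5 arrays lay between 3103 and 4660.

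Rpl35, a large-subunit protein near the mouth of the exit tunnel, read 21386 on BRAF-off, 23476 on BRAF-on, 18660 on ZEB2, 8334 on SNAIL2, 20937 on TWIST1 and 23952 on ZEB1. With SNAIL2 it was 2.82-fold below BRAF-on (-1.49, quantile -1.38). Its start has the longest pyrimidine run of the windows shown.

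Rpl22 is a large-subunit protein that is not needed for translation in general and that also binds RNA outside the ribosome. Its signals were 25518 on BRAF-off, 25016 on BRAF-on, 19501 on ZEB2, 10117 on SNAIL2, 27292 on TWIST1 and 30136 on ZEB1, so the SNAIL2 array was 2.47-fold below BRAF-on (-1.31, quantile -1.16) and the ZEB2 array was next lowest. Its paralog Rpl22l1 was lower as well, at 5206 on BRAF-on and 1954 on SNAIL2 (-1.41).

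Of the members between 1.5-fold and 2-fold lower, Rps24 and Rps7, small-subunit proteins needed early in ribosomal RNA processing, came closest to 2-fold. Rps24 read 25762 on BRAF-off, 25627 on BRAF-on, 23812 on ZEB2, 13337 on SNAIL2, 24248 on TWIST1 and 26939 on ZEB1 (SNAIL2 ratio -0.94). Rps7 read 21697, 24715, 21278, 12912, 20664 and 23553 on the same arrays in that order (also -0.94). Both passed 2-fold once arrays were centred, and the SNAIL2 array was the lowest for each.

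Rpl11, which with Rpl5 and 5S RNA binds and restrains MDM2, read 15722 on BRAF-off, 15796 on BRAF-on, 14040 on ZEB2, 8849 on SNAIL2, 15754 on TWIST1 and 16316 on ZEB1 (SNAIL2 ratio -0.84, quantile -0.71). Rps6, the small-subunit substrate of the S6 kinases, read 978, 937, 1198, 552, 1160 and 926 in that order, on a dim probe set (SNAIL2 ratio -0.76). Its ZEB2 and TWIST1 values were its highest. The remaining lower members past 1.5-fold were Rps25 (-0.89), Rpl37a (-0.81), Rps20 (-0.76) and Rpl14 (-0.62), and each of the 11 was past 1.5-fold after quantile normalization too.

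Other members did not share this. Rplp0, which anchors the ribosomal stalk, read 24911 on BRAF-off, 25727 on BRAF-on, 26249 on ZEB2, 30180 on SNAIL2, 22969 on TWIST1 and 27657 on ZEB1. SNAIL2 was its highest array, with a log2 ratio of 0.23 as deposited, 0.21 after quantile normalization and 0.15 after centring. Rps2 and Rps10, small-subunit proteins, had ratios of 0.10 and 0.08, which were 0.12 and 0.05 after quantile normalization and 0.02 and 0.01 after centring.

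Rpl8 (0.07) and Rps14 (0.04), proteins of the large and small subunit, were near BRAF-on, and centring put them at -0.01 and -0.04. Rpsa, a small-subunit protein that is also known as the laminin receptor, was at -0.03 and Rplp2, a stalk protein, at -0.09, but quantile normalization put Rpsa at 0.03. Rps3, a small-subunit protein with a role in DNA repair, was at -0.09 as deposited and at 0.11 after quantile normalization.

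Rps19, the gene most often mutated in Diamond-Blackfan anaemia, Rpl38, known for its part in translating Hox messages, and Rpl13a, known for silencing inflammatory messages after its release from the ribosome, lay between these, at -0.36, -0.33 and -0.32. The highest members were 2 with dim probe sets, Rps27 (0.59) and Rpl39 (0.25).

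**Figure D2:**
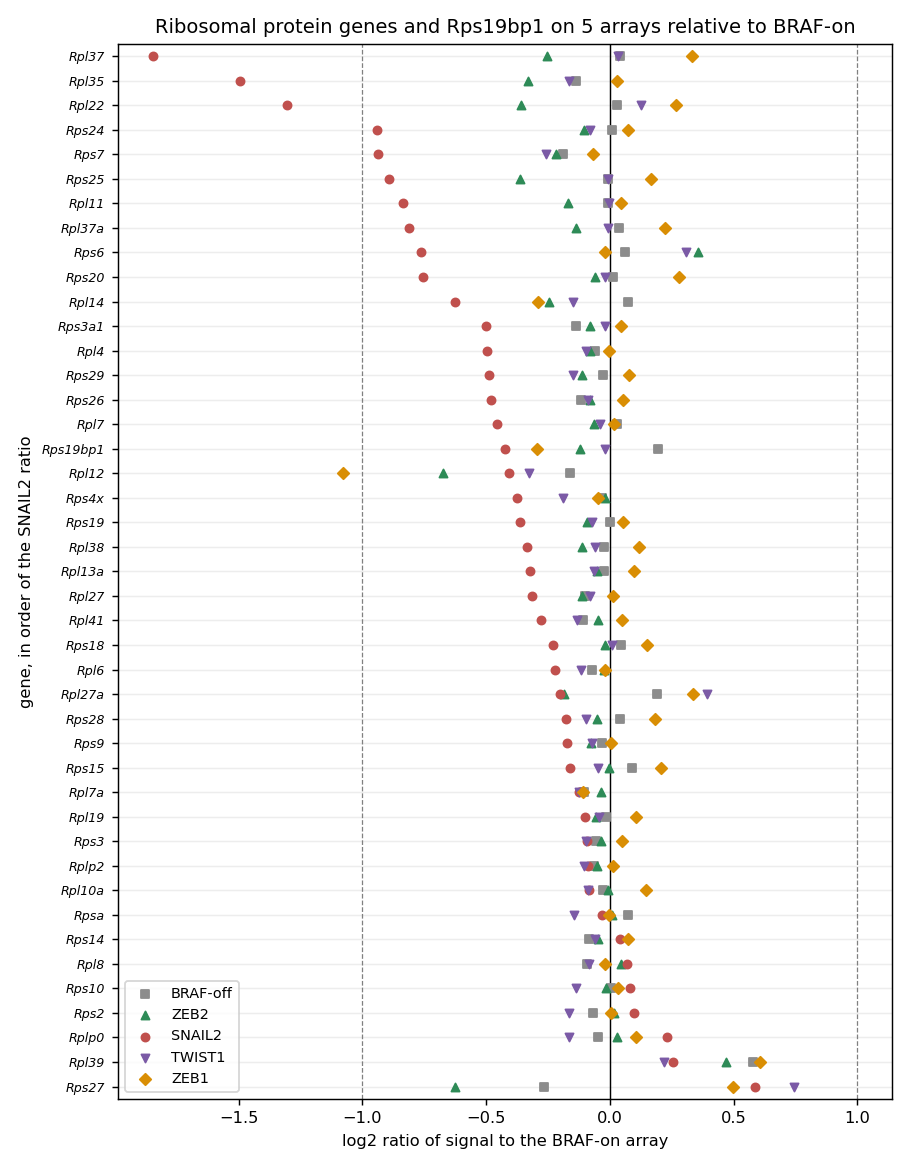
Log2 ratio of signal to the BRAF-on array for each of the 43 measured members, in order of its SNAIL2 ratio, with 1 symbol for each of the other 5 arrays and dashed lines at 2-fold. The SNAIL2 circles run from -1.85 (Rpl37) to 0.59 (Rps27), while the other symbols of most genes stay close to 0; Rpl12 on ZEB1 is the only other point past 2-fold.

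Of the 11 members at least 1.5-fold lower, 6 had several measured probe sets, and Rpl37, Rpl11, Rps25, Rps6 and Rpl14 had 1 each. Of 18 members with several measured probe sets, 15 had all of them on the same side of 0 in the SNAIL2 comparison, and none had probe sets opposed by 1.5-fold each. For Rpl35, 5 of 6 probe sets were at least 2-fold lower, and the remaining one stood at -0.09. For Rpl22 it was 2 of 3, with the other at -0.10, and for Rps24 it was 3 of 5. The 2 probe sets of Rps7 gave -1.18 and -0.94. Of the 4 for Rps20, 2 were past 1.5-fold and the range was -0.87 to -0.28, and of the 3 for Rpl37a, 2 were past 1.5-fold and the other stood at -0.03. In contrast, the 6 probe sets of Rps10 lay between -0.20 and 0.09, and the 2 of Rps14 at 0.04 and 0.08.

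**Figure D3:**
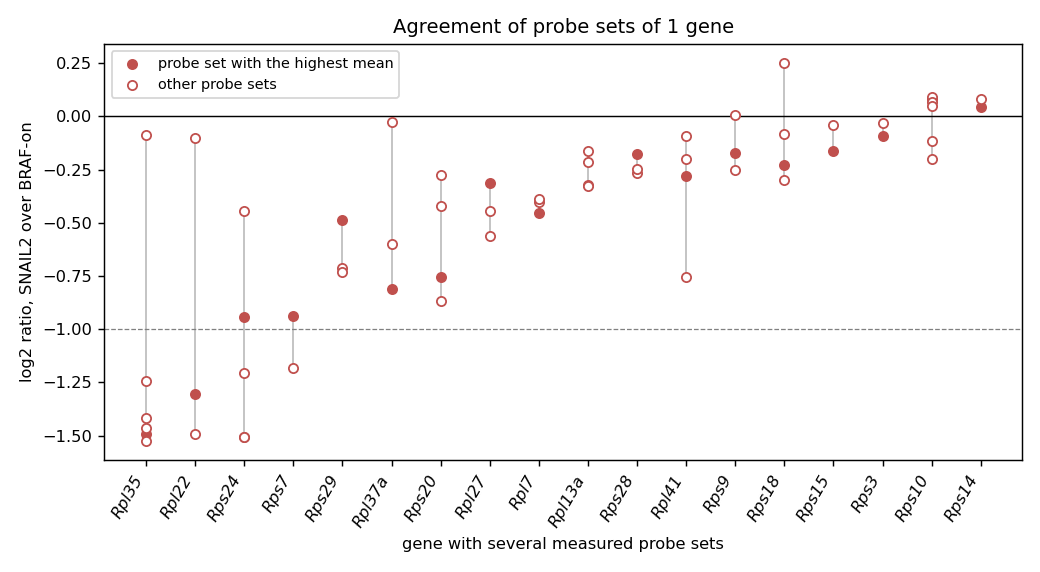
Log2 ratio of SNAIL2 to BRAF-on for each measured probe set of the 18 members that have several, with the one used for the gene filled and the dashed line at 2-fold lower. Probe sets of Rpl35 reach -1.53 and those of Rps24 -1.51, while the probe sets of Rps14 stay at 0.04 and 0.08.

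Probe sets that may match several transcripts were looked at separately. In 14 members the gene value came from a probe set marked by the manufacturer as open to matches with more than 1 transcript; their median was -0.41, and the 3 members at 2-fold were all among them. The other 29 had a median of -0.22 and none at 2-fold. With all such probe sets left out and each gene read from its remaining ones, 38 members were measured, the median was -0.32, and 2 were 2-fold lower, Rpl22 (-1.49) and Rpl35 (-1.46). Of the 110 probe sets assigned to several genes including one of this family, 105 were measured with SNAIL2: 25 (23.8%) were 2-fold lower, where 6.42% of all genes were, 57 were 1.5-fold lower, where 15.7% were, 98 were below 0, and the median was -0.60. After quantile normalization 21 were 2-fold lower (6.71% of all genes), 45 were 1.5-fold lower (16.2%), and the median was -0.47. They cannot be given to single genes. Several of these probe sets can list the same gene, while all genes were counted once each, so the shares are not like for like.

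Start sequences did not separate lower from other members. A pyrimidine run of at least 8 was found in 4 of the 10 members with a promoter entry that were 1.5-fold lower and in 12 of the 28 others (42.9%). The letters CCGGAAG were found in 6 of 10 and in 12 of 28. Over 38 members, promoter GC content and the SNAIL2 ratio had a Pearson r of 0.03, and over 43 members the log2 of the genomic span had an r of -0.22. These are descriptions over genes that share the same 2 arrays.

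Control transcripts moved with the SNAIL2 array too. Poly-A spike-in controls, bacterial RNAs added to the sample before labelling, were at a median of 2.55-fold their BRAF-on signal over 24 probe sets, against 0.88-fold to 1.42-fold on the other 4 arrays. Hybridisation controls, added after labelling, were at a log2 ratio of 0.26. Pigment markers were higher: 9 of 12 were at least 2-fold higher than on BRAF-on, with a median log2 ratio of 1.49, and their summed signal was 156377 against 72057. The part of these in the lower member signals was not tested. Each array pools the cells of a culture, so fewer cells with a transcript and less of it per cell cannot be told apart.

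Related lists differed in how they stood with SNAIL2. Mitochondrial ribosomal protein genes, which build the separate ribosome of mitochondria, had 17 of 76 (22.4%) at least 2-fold lower and none higher, with a median of -0.44. Mrpl47 went from 1964 on BRAF-on to 423 on SNAIL2 (-2.22), Mrpl33 from 2211 to 493 (-2.16) and Mrps18c from 3542 to 960 (-1.88). Mrpl42 (4794 to 1616), Mrpl52 (5404 to 1851) and Mrps33 (2999 to 1044) were next.

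Genes with a "-like" symbol, paralogs outside the rule, had 2 of 3 measured members 2-fold lower, Rpl22l1 and Rps27l (-1.29, from 15561 to 6370), and Rpl7l1 stood at -0.44. Fau, which encodes protein S30 fused to a ubiquitin-like domain, was at -0.25. Among 15 TOP translation factor genes the median was -0.02. Npm1, a nucleolar histone chaperone, was 2-fold lower (-1.03), and Naca (-0.94), Eif3e (-0.78) and Hnrnpa1 (-0.61) were past 1.5-fold lower. Eef2, elongation factor 2, was the highest at 0.52, short of 1.5-fold.

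Initiation factor genes (22) had a median of -0.07 with Eif3m alone at 2-fold lower (-1.69). Eif2s2 (-0.97), Eif5b (-0.88) and Eif4e (-0.67) were past 1.5-fold lower. Eif2b5 was highest at 0.81, and Eif3b (0.66) was past 1.5-fold higher too. Assembly genes (49) had a median of -0.01 and 6 members 2-fold lower: Rpf2 (-1.55), Nop58 (-1.25), Pno1 (-1.23), Sbds (-1.10), Gnl3 (-1.06) and Nop10, from 6010 on BRAF-on to 3004. Also past 1.5-fold lower were Polr1d (-0.96), Nmd3 (-0.94), Dkc1 (-0.91), Wdr43 (-0.75), Ltv1 (-0.74), Ebna1bp2 (-0.70) and Nip7 (-0.60). Polr1a, the largest subunit of RNA polymerase I, was the highest assembly gene at 0.83. Rrn3 (0.82) and Heatr1 (0.73) were past 1.5-fold higher too. Of 12 growth control genes 1 was 2-fold apart, Eif4ebp2, a translation repressor under mTOR, at 1.04.

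ZEB2 was followed by small differences. Against BRAF-on, none of the 43 members was 2-fold lower or higher, where 0.583% of all genes were lower and 1.76% higher. At 1.5-fold 2 were lower, where 3.98% of all genes were, and none was higher, where 6.01% were. Ratios were below 0 for 37 members, against 50.8% of all genes, but their median was only -0.06 and after quantile normalization -0.04, with 29 below 0 (51.6% of all genes). The 2 past 1.5-fold were Rpl12, a protein at the base of the stalk (1337 on BRAF-on, 838 on ZEB2, -0.67), and Rps27 (313 and 203, -0.63).

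Rps25 and Rpl22 were next, both at -0.36. Rpl39 (0.47), Rps6 (0.35) and Rpl8 (0.05) were the highest. Of the stalk and base proteins, Rplp0 was at 0.03. Pigment markers were 2-fold higher for 6 of 12, at a summed signal of 127707 against 72057, and their part was not tested.

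A comparison that shares no array with the SNAIL2 one, ZEB2 against BRAF-off, was set beside SNAIL2 against BRAF-on. Over the 34 bright members the ratios had a Pearson r of 0.73 and a Spearman rho of 0.61, and over all 43 members 0.32 and 0.40. Over 10880 genes the values were 0.40 and 0.48. With the 2 reference arrays exchanged, the bright members gave 0.87 and 0.80, all 43 members 0.15 and 0.57, and all genes 0.51 and 0.53. Against TWIST1 over BRAF-off, the SNAIL2 ratios gave an r of -0.33 over bright members, 0.12 over all 43 and -0.43 over all genes. Against ZEB1 over BRAF-off these were -0.36, 0.04 and -0.15. Spearman rho was -0.24 over bright members and -0.18 over all 43 with TWIST1, and -0.27 and -0.15 with ZEB1. The sizes thus depend on the dim members. With TWIST1 and ZEB1 the sign of r depends on them too, and that of rho does not. The division by brightness was made after the values were seen. All are correlations across genes that share the same arrays and labelling, and genes are no replicates.

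In the other lists with ZEB2, 1 of 76 mitochondrial ribosomal protein genes was 2-fold lower (Mrpl33, -1.06), and 65 were below 0, with a median of -0.19. Assembly genes had 38 of 49 below 0, a median of -0.16 and none at 2-fold (Rpf2 at -0.56 to Bop1 at 0.22). TOP translation factors had a median of -0.03 (Hnrnpa1 at -0.40 to Eif3f at 0.21), initiation factors one of -0.08 (Eif3m at -0.49 to Eif2b5 at 0.29), and growth control genes ranged from Eif4ebp1 at -0.22 to Myc at 0.43.

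TWIST1 left the family close to BRAF-on. None of the 43 members was 2-fold higher or lower, where 2.03% and 2.02% of all genes were. At 1.5-fold, 1 was higher, where 6.38% of all genes were, and none was lower, where 6.28% were. Ratios were below 0 for 36 members, against 49.6% of all genes, but for 23 after quantile normalization (47.6% of all genes), and the median was -0.08 and then -0.02.

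That 1 member was Rps27, with signals of 261 on BRAF-off, 313 on BRAF-on, 203 on ZEB2, 471 on SNAIL2, 525 on TWIST1 and 443 on ZEB1 (TWIST1 ratio 0.74). Against BRAF-off it was past 2-fold, at 1.01. Rpl27a (0.39) and Rps6 (0.31) were next highest, and Rpl12 (-0.33), Rps7 (-0.26) and Rps4x (-0.19) were the lowest. The array labelled TWIST1 is also the one on which pigment markers were lowest, at a summed signal of 4999. That sum was 72057 on BRAF-on and 29745 on ZEB1. The ribosomal protein median with TWIST1 was at -0.08.

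Among the other lists with TWIST1, growth control genes had 2 of 12 at 2-fold lower: Myc, a driver of ribosome production, at 1663 on BRAF-on and 760 on TWIST1 (-1.13), and its partner Max (-1.02). Assembly genes had 39 of 49 below 0 with a median of -0.15 and none at 2-fold (Rrp1b at -0.82 to Polr1c at 0.22). Mitochondrial ribosomal protein genes had a median of -0.01 (Mrps27 at -0.60 to Mrpl20 at 0.36), TOP translation factors -0.09 (Eef2 at -0.62 to Hnrnpa1 at 0.17) and initiation factors -0.07 (Eif2b5 at -0.57 to Eif3m at 0.17).

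ZEB1 was accompanied by steady ribosomal protein signals and lower assembly genes. Of 43 members, 1 was 2-fold lower, where 3.93% of all genes were, and none was 2-fold higher, where 4.49% were. At 1.5-fold, 1 was lower and 1 higher, where 10.8% and 14.8% of all genes were. The median was 0.05 with 32 members above 0 as deposited (56.7% of all genes), and -0.02 with 23 members below 0 after quantile normalization (44.2% of all genes), so its sign changed with the scaling.

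Rpl12 was the one member past 2-fold. Its signals were 1197 on BRAF-off, 1337 on BRAF-on, 838 on ZEB2, 1007 on SNAIL2, 1066 on TWIST1 and 634 on ZEB1 (ZEB1 ratio -1.08 as deposited and after quantile normalization). Against BRAF-off it was -0.92, under 2-fold. Rps19bp1 and Rpl14 were next lowest, both at -0.29. Rpl39 (0.61), Rps27 (0.50) and Rpl27a (0.34) were the highest, and all 6 of these had dim probe sets.

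The deposited pattern of a lowest SNAIL2 and a highest ZEB1 value is shown by Rps29, a small zinc-finger protein of the small subunit. It read 31999 on BRAF-off, 32658 on BRAF-on, 30174 on ZEB2, 23286 on SNAIL2, 29479 on TWIST1 and 34502 on ZEB1. The SNAIL2 ratio was -0.49 and the ZEB1 ratio 0.08. After quantile normalization these were -0.42 and 0. The ratio was also 0 with BRAF activation, ZEB2 and TWIST1, where the gene kept its rank near the top of the array. Quantile normalization gives each rank the same value on every array, so this 0 cannot show whether the ZEB1 rise was real.

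Assembly genes stood apart from the ribosomal proteins on the ZEB1 array. Of 49, 12 were at least 2-fold lower (24.5%) and 26 were 1.5-fold lower, 43 were below 0, and the median was -0.66 (-0.64 after quantile normalization). Nop58, a core protein of the box C/D particles that guide ribosomal RNA methylation, went from 4595 on BRAF-on to 1499 on ZEB1 (-1.62). Rrp12, which helps to export pre-ribosomes, went from 514 to 170 (-1.59).

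Nolc1, a nucleolar chaperone of such particles, went from 2143 to 819 (-1.39), and Ddx21, a nucleolar helicase, from 2166 to 863 (-1.33). Dkc1, the pseudouridine synthase of ribosomal RNA, went from 4355 to 1754 (-1.31), and Bysl, a small-subunit assembly factor, from 1627 to 725 (-1.17). Sbds, which matures the large subunit, was the highest at 0.52. Other genes past 2-fold with ZEB1 were Max (-1.05), Eif3a (-1.16), Eif5b (-1.02) and Nap1l1 (-1.02). The medians of mitochondrial ribosomal proteins (-0.11), TOP translation factors (-0.02) and initiation factors (-0.11) were closer to 0.

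Other signals moved with the ZEB1 array as well. Pigment markers were at least 2-fold lower for 9 of 12, at a summed signal of 29745 against 72057 on BRAF-on. Leukocyte markers reached the floor for 3 of 6 on both arrays, at a summed signal of 1198 against 592, and Cd68 read 466 against 128. Control probe sets for 18S ribosomal RNA read 3182 against 5718 at the 3′ end and 5288 against 8740 at the 5′ end. They were lower still on the TWIST1 array, at 2618 and 4338. With a poly-A-primed kit these are no measure of ribosomal RNA amount. The part of these marker and control signals in the assembly gene values was not tested.

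**Figure D4:**
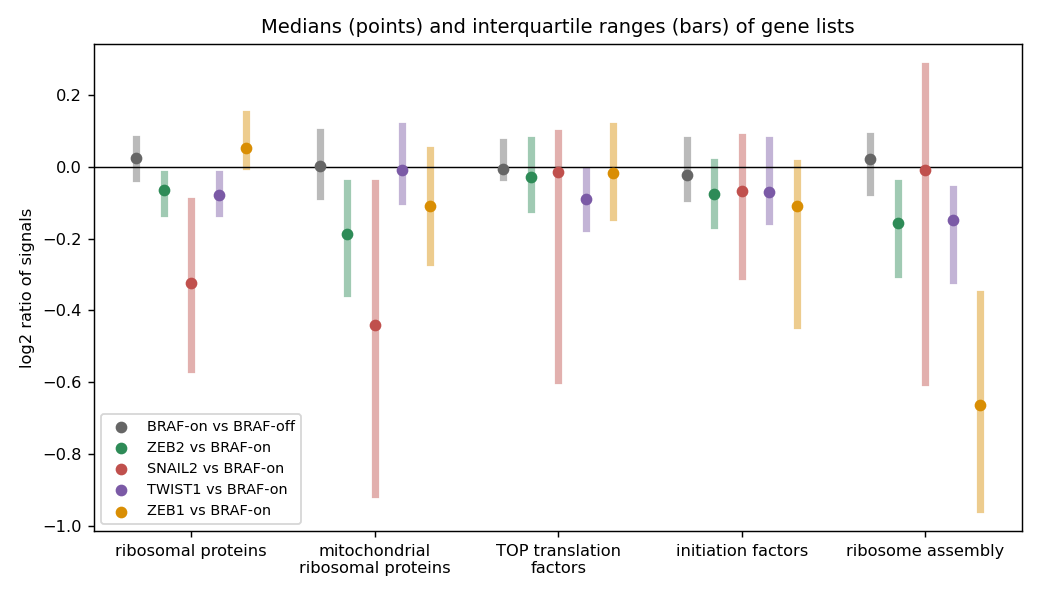
Median (points) and interquartile range (bars) of the log2 ratio of signal for ribosomal protein genes and 4 related gene lists in the 5 comparisons of 1 array with 1 array. Ribosomal protein genes are at -0.32 with SNAIL2 and 0.05 with ZEB1, mitochondrial ribosomal protein genes at -0.44 with SNAIL2, and assembly genes at -0.66 with ZEB1.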

How the data were processed

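The authors' deposited values are MAS5 signals, a linear array intensity on a 1-colour Affymetrix chip, for which the submitters' processing notes name Affymetrix Expression Console 1.1; 100 ng of total RNA per sample was amplified with a 3′ kit per the labels' protocols. The file holds 45101 probe sets, of which 64 are controls; 34945 carried 1 gene symbol, 932 several and 9160 none. Where a gene had several probe sets, the one highest on average over the 6 arrays (log2) stood for it. Signals were raised to a floor of 63.7, the median of all non-control values, and a gene was compared if 1 of the 2 arrays reached it. Differences are log2 ratios, and at least 2-fold counts as different. The number of arrays limits the precision, and with 1 array per group no test was possible.

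Members and gene lists were chosen with earlier results of these data known. Named genes were members at least 2-fold apart in any comparison, the 3 highest and 3 lowest members of each, stalk and base proteins, members with roles outside the ribosome and, of each other list, genes at least 2-fold apart (the first 6 by size) or its highest and lowest. Rps2, Rps10, Rpl8, Rps24, Rps25, Rpl37a, Rps20, Rps18 and Rps29 were named after their values were seen. So were the genes of other lists named as past 1.5-fold with SNAIL2. Alternatives were quantile normalization, centring, other floors, the floor as pseudocount, the median of a gene's probe sets, probe sets with one target, 1.5-fold, members without Rps19bp1 and BRAF-off as reference. Added after the data were seen were bright members alone and probe sets of several genes. Scripts ran in Python 3.11.15 with numpy 2.4.6, pandas 2.3.3, scipy 1.17.1 and matplotlib 3.10.9, and were tested on simulated data.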

Additional observations from a re-analysis of the deposited data

Results flagged for a closer look

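Rps27 stood on opposite sides of BRAF-on with different factors: its log2 ratio was -0.63 on the ZEB2 array and 0.74 on the TWIST1 array, each 1 array. The difference between these was not tested. Its probe set is dim, with signals from 203 to 525.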

How the results depend on the processing

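Each group has 1 array, so no alternative leaves one out. No paired analysis was possible because each group has 1 array. Of the medians recomputed, 57 moved by at most 0.1 on the log2 scale and 2 by more, both for SNAIL2: -0.21 with quantile normalization and -0.60 over probe sets of several genes. Of the counts, 103 stayed within 1.5 times the reported one and 15 did not. The SNAIL2 count of 3 lower members became 5 with centring, 5 with the median of a gene's probe sets (both adding Rps24 and Rps7), 11 at 1.5-fold and 25 over probe sets of several genes, and the count higher became 1 at 1.5-fold. The ZEB2 count was 2 lower at 1.5-fold and 1 higher with no floor (Rps16, under the floor). With BRAF activation 1 was higher with the median of probe sets (Rps6, 1.64). That median takes in a probe set under the floor on both arrays, at 4.52 on BRAF-off and 45.6 on BRAF-on. The Rps6 probe set used elsewhere stood at -0.06. The TWIST1 count higher became 1 at 1.5-fold and 1 against BRAF-off. The ZEB1 count lower became 0 in bright members, 0 against BRAF-off and 0 over probe sets of several genes, and the count higher 1 at 1.5-fold and 1 over probe sets of several genes. The cause of these changes was not tested. Single members past 2-fold stayed so in 30 recomputed values, and Rpl12 with ZEB1 fell short against BRAF-off (-0.92). Signals under the floor have no order.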
